A study of Homo sapiens with 4 samples.

Results

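The mitochondrial genome encodes 37 of the 58735 genes counted in MHCC-97H cells, and all 37 were taken as members by their chromosome, MT. They are 13 protein genes, 2 rRNA genes and 22 tRNA genes, and their coordinates are those of GENCODE release 29 on GRCh38. MHCC-97H is an established metastatic HCC line, and Migs (migrasomes) are large vesicles that migrating cells leave behind on their retraction fibers. RNA was sequenced from WT MHCC-97H cells kept for 24 h with PBS or with 2 μg of Migs, and each of the 4 conditions had 1 library. The sample labels used here do not give the batch of a library. The normo-Migs came from MHCC-97H cells in normoxia, the hypo-Migs from the same line in hypoxia, and the CD147KO-Migs from CD147-knockout MHCC-97H cells in hypoxia, so the knockout was in the cells that released the Migs and not in the cells sequenced. The question for the MT genes was whether their share of the reads differed between cells given hypo-Migs and cells given normo-Migs, CD147KO-Migs or PBS.

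Mitochondrial DNA is a small circular genome that is transcribed from both strands into long precursors, which are cut at the tRNAs that lie between most of the genes. The mRNAs encode core subunits of respiratory complexes I, III and IV and of ATP synthase (complex V), and the rRNAs form the mitochondrial ribosome that translates them. All other proteins of these complexes, and the polymerase that reads the genome, are encoded in the nucleus. The genes have no introns, and most of the mRNAs receive poly(A) tails after cleavage.

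The library labelled PBS stood apart from the Mig libraries across the whole table. The libraries held 33882496 to 40285223 reads on genes, and 19895 genes reached 10 reads in 1 or more of them. Against the library labelled PBS, 30.3% to 30.6% of these genes were past a 2-fold difference, and between Mig libraries the share was 9.02% to 9.73%. Epithelial KRT8 had 105571 to 167573 reads, whereas the hepatocyte genes ALB, AFP, APOB and TTR had 0 reads in every library. The 10 hepatocyte or hepatoma markers summed to 4201 CPM (reads per 1000000 reads on genes) with PBS and to 5479 to 6592 CPM with Migs. This sum was nearly all reads on the keratins KRT8 and KRT18, and 6 of the 10 genes had 0 reads with PBS. Past 2-fold were FGB, with 0 reads with PBS and 561 to 832 with Migs, SERPINA1, with 25 and 2 to 10, and TF, with 2 reads with PBS and 0, 0 and 10 with Migs. The 5 stromal markers summed to 23.6 CPM with PBS and 157 to 167 CPM with Migs, the 4 leukocyte markers to 0.236 CPM and 1.33 to 1.79 CPM, and the 4 endothelial markers to 3.16 CPM and 4.28 to 5.54 CPM, with PTPRC and KDR at 0 to 2 reads throughout. Of the stromal markers, 4 were past 2-fold higher with each kind of Migs and 1 was below 0. The lowest log2 ratios were -0.89, -0.23 and -0.44 for normo-Migs, hypo-Migs and CD147KO-Migs minus PBS. Only 1 leukocyte marker reached 10 reads in any library, and 3 of the 4 had at most 3 reads in each library. The 2 tested endothelial markers went opposite ways. For normo-Migs, hypo-Migs and CD147KO-Migs minus PBS, the log2 ratios were 2.72, 2.80 and 2.85 for one and -1.46, -0.46 and -0.54 for the other. The part of these differences in the MT values was not tested. All 3 comparisons with PBS use this same library, so the tested MT genes are also compared between Mig libraries. With 1 library per condition no difference has a replicate check and no test was run, and every interval is a 95% interval of counting error only. In bulk RNA, fewer cells of a type and less RNA per cell cannot be told apart, and neither can fewer mitochondria and less RNA per mitochondrion.

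Reads on MT genes made up 2.69% of the reads on genes in the library labelled PBS (Wilson interval 2.69% to 2.70%). The share was 5.00% with normo-Migs (4.99% to 5.01%), 5.16% with hypo-Migs (5.15% to 5.17%) and 5.06% with CD147KO-Migs (5.05% to 5.07%). Thus the Mig libraries lay within 0.16 percentage points of each other and at least 2.31 percentage points above PBS. As a log2 ratio of shares, hypo-Migs exceeded PBS by 0.94, a fold of 1.92, and normo-Migs and CD147KO-Migs exceeded it by 0.89 and 0.91. Hypo-Migs minus normo-Migs was 0.046 (exact interval 0.043 to 0.048) and hypo-Migs minus CD147KO-Migs was 0.029 (0.026 to 0.032). Normo-Migs minus CD147KO-Migs was -0.017, and its sign turned when the libraries were scaled by TMM factors or DESeq2 size factors, or when the rRNA genes were left out.

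**Figure D1:**
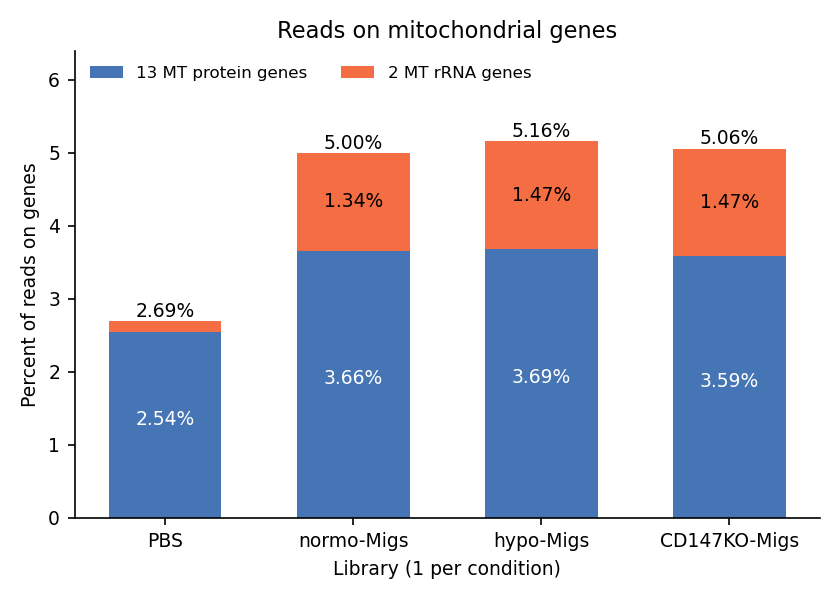
Bars show the percent of all reads on genes that fell on the 13 MT protein genes (blue) and the 2 MT rRNA genes (orange) in each of the 4 libraries, with the sum of both above each bar. The rRNA part was 0.150% with PBS and 1.34% to 1.47% with Migs, and the protein part was 2.54% with PBS and 3.59% to 3.69% with Migs.

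The rRNA genes differed far more from PBS than the protein genes did. Together they took 0.150% of the reads on genes with PBS, 1.34% in the normo-Migs library, 1.47% with each of the other Migs. The Mig libraries were thus 8.93-fold, 9.84-fold and 9.80-fold above PBS, in the order normo-Migs, hypo-Migs and CD147KO-Migs. Of all MT reads, the rRNAs were 5.56% with PBS and 26.7% to 28.99% with Migs. The ratio of rRNA to protein reads within a library was 0.0589 with PBS, 0.365 in the normo-Migs library, 0.400 with hypo-Migs and 0.408 with CD147KO-Migs. Of the gap in MT share to PBS, the rRNA genes made up 51.4%, 53.6% and 55.7% for normo-Migs, hypo-Migs and CD147KO-Migs. Hypo-Migs and CD147KO-Migs were close in rRNA share, with a log2 ratio of 0.01, and normo-Migs was lower than both, by a log2 ratio of 0.14 and 0.13.

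MT-RNR2, the rRNA of the large mitochondrial ribosomal subunit (MT:1671-3229, plus strand), had 41909 reads with PBS, 429744 in the normo-Migs library, 552461 with hypo-Migs and 480290 with CD147KO-Migs. It was the gene with the most reads in every Mig library and ranked 47 with PBS. The log2 ratio to PBS was 3.33 for normo-Migs and 3.47 for both hypo-Migs and CD147KO-Migs. MT-RNR1, the rRNA of the small subunit (MT:648-1601, plus strand), had 8810, 32267, 40815 and 33595 reads in the same order. Its log2 ratios to PBS were 1.84, 1.96 and 1.88, so the paired rRNAs of the mitochondrial ribosome did not differ from PBS by the same amount. Between Mig libraries the log2 ratios lay from -0.14 to 0.14 for MT-RNR2 and from -0.04 to 0.12 for MT-RNR1. Per length, MT-RNR2 was 2.91 times the FPKM level of MT-RNR1 with PBS and 8.15 to 8.75 times it with Migs.

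Both rRNA genes hold runs of A within their sequence, and the supplementary methods describe mRNA capture on poly-T beads while the sample labels name another mRNA kit. The motif AAAAA or longer was searched on the sense strand of the GENCODE sequences. MT-RNR2 held 7 such runs, the longest of 7 bases, and MT-RNR1 held 1 run, of 6 bases. Among 24547 other reference transcripts of 954 to 1559 bases, the lengths of the rRNAs, 69.5% held at least 1 run and 4.41% at least 7. None of these was longer than MT-RNR2, and shorter transcripts have less room for runs. The share at the length of MT-RNR2 itself was not taken. Of the 15 MT protein and rRNA genes, 12 held a run, and those without were MT-ND4L, MT-ND6 and MT-CYB. Among the protein genes, MT-ND2 and MT-ND5 held the most runs, 4 each, and the run of 8 bases in MT-ND5 was longer than any in the rRNAs. The log2 ratios of MT-ND2 and MT-ND5 for hypo-Migs minus PBS were 0.61 and 0.13. The windows below end at a run in each rRNA, with the runs in capitals, and are shown because the 2 genes differed most from PBS. The first is MT:899-998 and the second MT:2057-2156, both on the plus strand.

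MT-RNR1 window: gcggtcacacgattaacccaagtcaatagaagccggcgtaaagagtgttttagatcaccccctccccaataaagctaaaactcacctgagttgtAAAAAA

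MT-RNR2 window: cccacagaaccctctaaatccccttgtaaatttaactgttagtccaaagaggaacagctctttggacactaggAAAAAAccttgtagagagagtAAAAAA

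The part of A runs, of the capture step and of RNA quality in the rRNA values was not tested. MALAT1, a long nuclear RNA, had 9431, 8460, 11700 and 8543 reads, and NEAT1, the RNA of nuclear paraspeckles, had 44786, 18901, 24657 and 20812. NEAT1 was therefore lower with Migs, by a log2 ratio of -1.11 for hypo-Migs minus PBS. The replication-dependent histone mRNAs, which lack poly(A) tails, summed to 314 CPM with PBS and to 168 to 197 CPM with Migs. Their median log2 ratio for hypo-Migs minus PBS was -0.77 over 45 tested genes.

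Of the 37 MT genes, 16 had at least 10 reads in at least 1 library, namely the 13 protein genes, both rRNA genes and MT-TP. Against PBS, 3 of the 16 were past 2-fold higher, MT-RNR2, MT-RNR1 and MT-ND1, with each kind of Migs, and 0 were past 2-fold lower. Over all 19895 genes, 30.3% were past 2-fold in either direction for normo-Migs minus PBS and 17.4% higher. For hypo-Migs minus PBS the shares were 30.6% and 18.4%, and for CD147KO-Migs minus PBS 30.3% and 18.0%. With 3 of 16, the MT count is near this background. The median log2 ratio of the 16 genes was 0.44, 0.47 and 0.46, beside -0.01, 0.01 and 0.00 over all tested genes. Between Mig libraries, 0 of the 16 MT genes were past 2-fold, beside 9.40% of all genes for hypo-Migs minus normo-Migs, 9.02% for hypo-Migs minus CD147KO-Migs and 9.73% for normo-Migs minus CD147KO-Migs. When only the 14970 genes that reached 10 reads in all 4 libraries were counted, the background was 18.0% to 18.4% against PBS and 1.54% to 1.75% between Mig libraries.

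**Figure D2:**
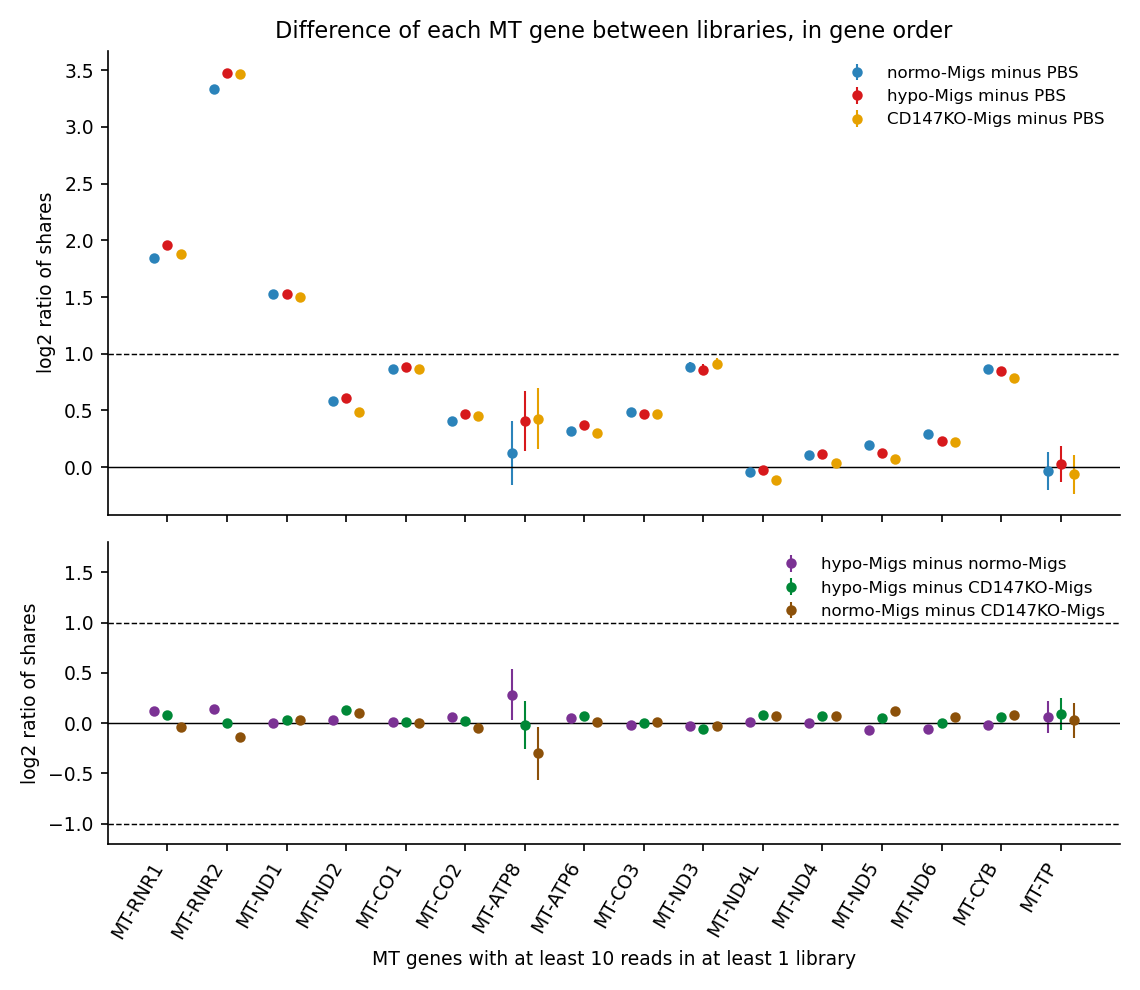
Points are log2 ratios of the share of reads of each MT gene, in gene order, for each Mig library minus PBS (upper panel) and between Mig libraries (lower panel), with 95% intervals of counting error as bars and dashed lines at 2-fold. In the upper panel 3 genes lie above the line, from 1.498 for MT-ND1 to 3.47 for MT-RNR2, and in the lower panel all lie within 0.30 of 0.

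Complex I, the NADH dehydrogenase that feeds electrons into the chain, has 7 subunits among the MT genes, and these spanned the whole range of the protein genes. MT-ND1, the first protein gene after MT-RNR2, had 24993 reads with PBS, 73603 in the normo-Migs library, 85795 with hypo-Migs and 73021 with CD147KO-Migs. Its log2 ratio to PBS was 1.53, 1.53 and 1.498, the highest of the 13 protein genes in each comparison. MT-ND2 had 37844, 57878, 68769 and 54689 reads, and log2 ratios of 0.58, 0.61 and 0.48. MT-ND3 had 5407, 10176, 11659 and 10528 reads, and log2 ratios of 0.88, 0.86 and 0.91. These genes were higher in each Mig library than with PBS. MT-ND4 and MT-ND5 are proton-pumping subunits of the membrane arm. MT-ND4 had 211149, 231928, 271279 and 224393 reads, with log2 ratios of 0.11, 0.11 and 0.04. MT-ND5 had 62235, 72677, 80840 and 67816 reads, with log2 ratios of 0.20, 0.13 and 0.08. These were small beside those of MT-ND1 to MT-ND3, and they turned negative when taken as shares of the MT protein reads. Between Mig libraries the log2 ratios of MT-ND1 to MT-ND5 lay from -0.07 for MT-ND5 to 0.13 for MT-ND2, with MT-ND1 at 0.00 to 0.03.

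MT-ND4L, also of complex I, had 14182 reads with PBS, 14054 in the normo-Migs library, 16547 with hypo-Migs and 13577 with CD147KO-Migs. Its log2 ratios to PBS of -0.04, -0.03 and -0.11 were the lowest of the protein genes, and those for normo-Migs and hypo-Migs turned to 0.01 and 0.005 under TMM scaling. Between Mig libraries they were 0.01 to 0.08. MT-ND4L and MT-ND4 lie on the same mRNA and share 7 bases. The last 40 bases of MT-ND4L (MT:10727-10766, plus strand) are printed with the shared bases in capitals, since these close 1 reading frame and open the next.

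MT-ND4L last 40 bases: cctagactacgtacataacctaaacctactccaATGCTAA

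Although the genes are on 1 mRNA, the FPKM level of MT-ND4 was 3.21 times that of MT-ND4L with PBS and 3.53 to 3.56 times it with Migs. The treatment of reads that span both genes is not given in the sources used here, and its part in this ratio was not tested. MT-ND6 (MT:14149-14673) is the only MT protein gene on the other strand. It had 15304, 19087, 21336 and 18477 reads, with log2 ratios to PBS of 0.29, 0.23 and 0.22, which were -0.24, -0.31 and -0.28 as shares of the MT protein reads. Between Mig libraries they were -0.06 to 0.07. The handling of strand in the counting is not given in the sources used here, so its reads cannot be told apart from RNA of the opposite strand.

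MT-CYB, cytochrome b of complex III, had 41316 reads with PBS, 76786 in the normo-Migs library, 88312 with hypo-Migs and 73757 with CD147KO-Migs. The log2 ratios to PBS were 0.87, 0.85 and 0.79, and between Mig libraries -0.02 to 0.08. It is the last heavy-strand protein gene in gene order, yet its ratios were close to those of MT-ND3 and MT-CO1 and above those of MT-ND4 and MT-ND5, its nearest heavy-strand protein genes.

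Complex IV, cytochrome c oxidase, has 3 subunits on the MT genome, which form its catalytic core. MT-CO1 had 200289, 371698, 438097 and 377363 reads, the second most of any gene in every library. Its log2 ratio to PBS was 0.86, 0.88 and 0.87, under 2-fold. After MT-RNR2, it made up the most of the gap in MT share to PBS, 21.0%, 20.1% and 20.5% for normo-Migs, hypo-Migs and CD147KO-Migs. MT-CO2 had 99749, 134710, 164162 and 140826 reads, and log2 ratios of 0.41, 0.47 and 0.45. MT-CO3 had 91568, 130469, 150333 and 130896 reads, and log2 ratios of 0.48, 0.47 and 0.47. All were higher with Migs as shares of all reads, MT-CO1 by more than the other two, whereas as shares of the MT protein reads MT-CO2 was -0.12, -0.07 and -0.05 and MT-CO3 -0.04, -0.07 and -0.03. Between Mig libraries the 3 genes lay from -0.04 to 0.06.

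Complex V, the ATP synthase, has 2 subunits on the MT genome, MT-ATP8 and MT-ATP6, which are read from 1 mRNA in overlapping frames. The sequence of MT-ATP8 (MT:8366-8572, plus strand) is shown with the 46 bases it shares with MT-ATP6 in capitals, because a read on these bases belongs to both genes.

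MT-ATP8: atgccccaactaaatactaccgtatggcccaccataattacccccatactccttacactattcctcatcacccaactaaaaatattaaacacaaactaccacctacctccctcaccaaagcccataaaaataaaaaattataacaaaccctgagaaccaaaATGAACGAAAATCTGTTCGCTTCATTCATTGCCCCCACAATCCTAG

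MT-ATP8 is 207 bases long and has 161 bases of its own. It had 198, 220, 312 and 275 reads, the fewest of the protein genes, while MT-ATP6 had 56788, 72123, 87438 and 72379. The FPKM level of MT-ATP6 was thus 80.0 to 99.6 times that of MT-ATP8, although both are on 1 mRNA. How the counting treated reads that span both genes is not given in the sources used here, and its part in the MT-ATP8 level was not tested. For MT-ATP6 the log2 ratios to PBS were 0.32, 0.37 and 0.30, which were -0.21, -0.16 and -0.20 as shares of the MT protein reads, and between Mig libraries 0.01 to 0.07. For MT-ATP8 they were 0.12, 0.40 and 0.42, and the interval for normo-Migs, -0.16 to 0.41, included 0. MT-ATP8 also gave the largest difference of any tested MT gene between hypo-Migs and normo-Migs, a log2 ratio of 0.28 (0.03 to 0.54), and between normo-Migs and CD147KO-Migs, -0.30 (-0.56 to -0.04). Between hypo-Migs and CD147KO-Migs the largest was that of MT-ND2, 0.13 (0.11 to 0.15).

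**Figure D3:**
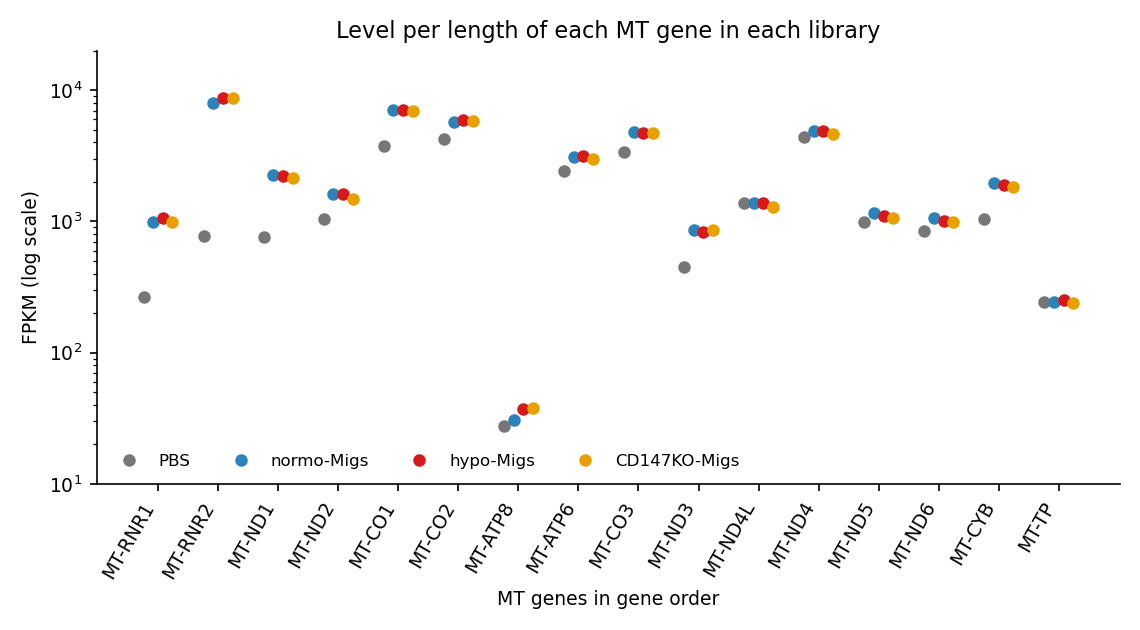
Points are the FPKM level of each of the 16 MT genes on a log axis, in gene order, 1 point per library and PBS in grey. MT-RNR2 ranges from 777 with PBS to 8753 with hypo-Migs, whereas MT-ND4L stays between 1293 and 1381 and MT-ATP8 lies lowest, between 27.7 and 37.6.

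Per length, the order of the MT genes differed between PBS and the Mig libraries. With PBS the highest FPKM level was that of MT-ND4, 4431, followed by MT-CO2 at 4217, MT-CO1 at 3756 and MT-CO3 at 3377. With hypo-Migs it was that of MT-RNR2, 8753, followed by MT-CO1 at 7018, MT-CO2 at 5928, MT-ND4 at 4863 and MT-CO3 at 4736. Within each library, MT-ND4 had 1.05 reads per read of MT-CO1 with PBS and 0.595 to 0.624 with Migs. MT genes held 2 of the 10 genes with the most reads with PBS and 5 of 10 in each Mig library. By FPKM they held 10 of the top 20 genes with PBS and 12 to 13 with Migs.

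As shares of the reads on the 13 protein genes, complex IV was 45.5% with PBS and 50.3% to 51.6% with Migs, and complex III was 4.80% and 5.86% to 6.07%. Complex I was 43.1% with PBS and 36.8% to 37.9% with Migs, and complex V was 6.62% and 5.72% to 5.91%. Within complex I, the shares of MT-ND4, MT-ND5, MT-ND4L and MT-ND6 were lower with Migs, whereas MT-ND1 had 2.90% of the protein reads with PBS and 5.78% to 5.82% with Migs. On this scale the log2 ratio of MT-ND1 to PBS was 1.00, 0.99 and 1.00, and that of MT-ND4 was -0.42, -0.42 and -0.46.

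**Figure D4:**
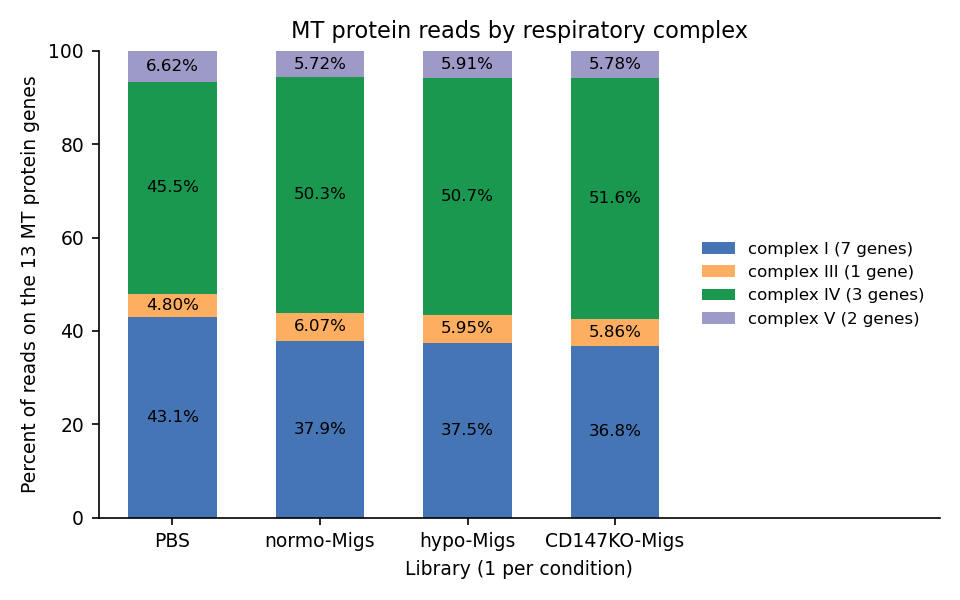
Bars divide the reads on the 13 MT protein genes of each library by respiratory complex, in percent. Complex I has 43.1% with PBS and 36.8% to 37.9% with Migs, and complex IV has 45.5% with PBS and 50.3% to 51.6% with Migs.

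Along the heavy strand, the differences from PBS were in general higher near the rRNA genes and lower toward MT-ND4 and MT-ND5. The order was not even, as MT-CO1, MT-ND3 and MT-CYB, at 0.88, 0.86 and 0.85 for hypo-Migs minus PBS, stood above their neighbouring protein genes. Over the 14 heavy-strand protein and rRNA genes, Pearson's r between the distance from the first gene and the log2 ratio to PBS was -0.67, -0.70 and -0.69 for normo-Migs, hypo-Migs and CD147KO-Migs. For the 12 protein genes alone it was -0.41, -0.49 and -0.47, and Spearman's correlation was -0.37, -0.54 and -0.48. Without MT-CYB, Pearson's r was -0.70, -0.77 and -0.73. MT-CYB lay off the order in these same values, so leaving it out gives no separate support for the order. These are descriptions across genes that share a precursor and 1 PBS library, and genes are not independent replicates.

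The tRNA genes, 59 to 75 bases long, were nearly without reads. The supplementary methods describe poly-T capture and size selection, and their part in these low counts was not tested. Low counts therefore do not show that the tRNAs were absent from the cells. Of the 22 genes, 19 had 0 reads in all 4 libraries, where the upper Wilson limit was 9.54e-06% to 1.13e-05% of the reads on genes. MT-TF, the tRNA for phenylalanine, had 3, 6, 5 and 1 reads, and MT-TC, for cysteine, had 1 read in CD147KO-Migs and 0 elsewhere. MT-TP, the tRNA for proline, was the exception, with 576 reads with PBS, 573 in the normo-Migs library, 698 with hypo-Migs and 570 with CD147KO-Migs. Its log2 ratios to PBS were -0.04, 0.03 and -0.06, each with an interval that included 0, and between Mig libraries they were 0.03 to 0.09. MT-TP lies on the minus strand (MT:15956-16023), and MT-TT, for threonine, lies beside it on the plus strand (MT:15888-15953) with 0 reads in every library. Both are shown because they are neighbours of like length and differ in reads.

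MT-TP: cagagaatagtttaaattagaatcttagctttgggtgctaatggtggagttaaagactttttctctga

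MT-TT: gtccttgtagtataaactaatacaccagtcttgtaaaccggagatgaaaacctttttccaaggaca

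Without strand, the reads on MT-TP cannot be told apart from RNA of the opposite strand.

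Parts of the MT genome are copied in nuclear chromosomes, and 407 genes of the table were named as such copies. They took 0.0465% of the reads on genes with PBS, 0.0595% in the normo-Migs library, 0.0568% with hypo-Migs and 0.0529% with CD147KO-Migs, small beside the MT shares. Most of these reads were on MTATP6P1 (chr1:633696-634376), which differs from MT-ATP6 at 10 of 681 bases and had 12088, 15691, 17204 and 14234 reads. That was 16.4% to 17.9% of the reads on MT-ATP6 and its copy together. The split of reads between the 2 genes is uncertain, so the level of MT-ATP6 is too. MTND2P28 and MTCO1P12, copies of MT-ND2 and MT-CO1, had 3.90% to 4.43% and 0.474% to 0.983% of the reads on member and copy. MTRNR2L12, on chromosome 3 and 95.1% identical to MT-RNR2 where they align, had 4, 56, 76 and 50 reads, 0.00954% to 0.0138% of the reads on both.

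The counts of nuclear genes past 2-fold are given beside a share over all genes of 30.3% to 30.6% against PBS, or 18.0% to 18.4% for genes that reached 10 reads in all 4 libraries. Of 9 genes for mtDNA transcription, 0 were past 2-fold in any comparison, and their median log2 ratio for hypo-Migs minus PBS was 0.20. POLRMT, the mitochondrial RNA polymerase, had 6787 reads with PBS, 4094 in the normo-Migs library, 4326 with hypo-Migs and 3651 with CD147KO-Migs, a log2 ratio of -0.90 for hypo-Migs. TFAM, which packages mtDNA and starts transcription, had 2252, 3010, 3677 and 3238 reads (0.46 for hypo-Migs), and TFB2M, which opens the promoter, had 1598, 1684, 2042 and 1814 reads (0.10). The polymerase transcript was thus lower with Migs and the TFAM transcript higher.

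For hypo-Migs minus PBS, where 30.6% of all tested genes were past 2-fold, 0 of 25 genes for MT RNA processing and stability were, with a median of -0.11. LRPPRC and SLIRP, which together stabilise MT mRNAs, had log2 ratios of 0.30 and 0.52. Among 22 genes for mtDNA replication and maintenance, 1 was past 2-fold, TYMP, a thymidine phosphorylase, with 178 reads with PBS and 1279 to 1585 with Migs. POLG, the mtDNA polymerase, had a log2 ratio of -0.64 for hypo-Migs minus PBS, and TWNK, the mtDNA helicase, 0.74. Among 11 regulators of mitochondrial biogenesis, 2 were past 2-fold higher and 1 lower for hypo-Migs minus PBS, a share near the 30.6% of all genes. PPARGC1A, a coactivator of respiratory genes, had 399, 928, 1286 and 1063 reads, and its relative PPARGC1B had 518, 1174, 1260 and 1113. ESRRG, a nuclear receptor, had 414 reads with PBS and 0 with Migs. NRF1, a transcription factor of respiratory genes, had 770, 660, 783 and 696 reads.

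The 75 tested nuclear subunits of complexes I, III, IV and V had a median log2 ratio of 0.31 for hypo-Migs minus PBS, beside 0.47 for the 13 MT protein genes and 0.01 for all tested genes. Of them, 57 were above 0 and, beside 30.6% of all genes in this comparison, 4 were past 2-fold, UQCRB of complex III (1.10), COX6C of complex IV (1.22) and ATP5F1E and ATP5MD of complex V (1.03 and 1.25). The 78 mitochondrial ribosomal protein genes, whose products join the MT rRNAs, had a median of -0.08, and 45 of them lay below 0. Of the 78, 2 were past 2-fold, MRPL53 (1.20) and MRPS6, with 1397 reads with PBS and 747 with hypo-Migs. Thus the rRNA and the protein genes of the mitochondrial ribosome differed from PBS by unlike amounts, 3.30 for the summed rRNA against this median. Between hypo-Migs and normo-Migs the medians were 0.06 for mtDNA transcription, 0.01 for RNA processing, -0.02 for the nuclear subunits and -0.06 for the ribosomal proteins.

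**Figure D5:**
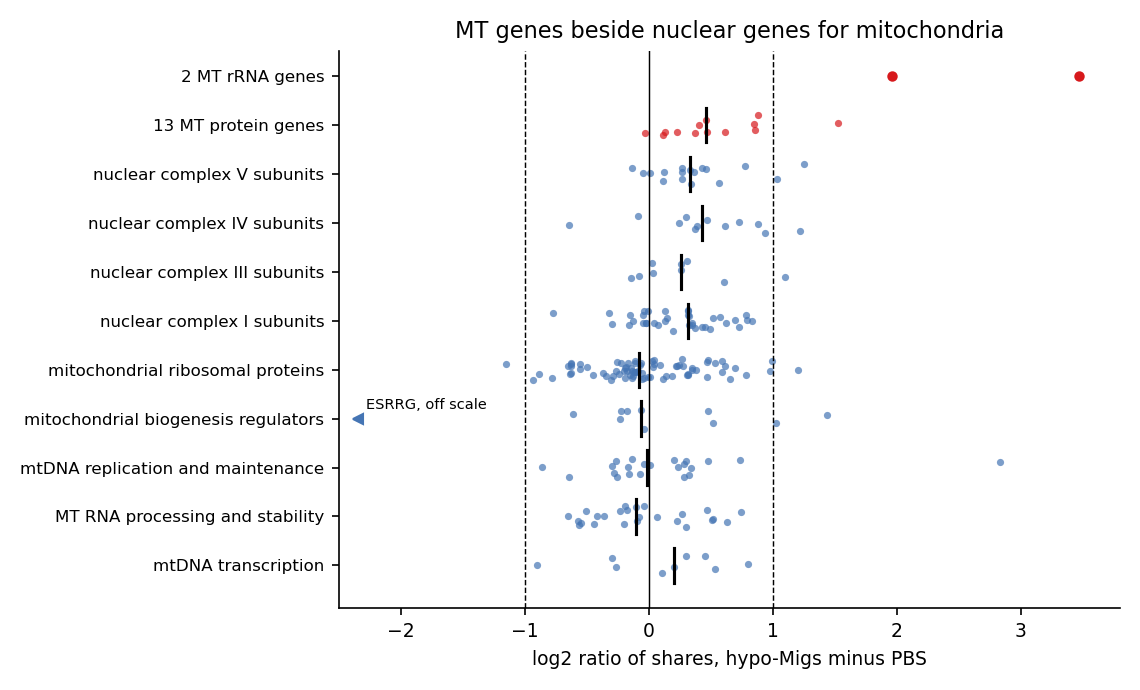
Points are log2 ratios of hypo-Migs minus PBS for single genes, nuclear lists in blue and MT genes in red, with black bars at list medians, dashed lines at 2-fold and ESRRG off the scale to the left. The MT rRNA genes, at 1.96 and 3.47, lie to the right of the nuclear lists apart from TYMP at 2.84, and the MT protein genes have a median of 0.47 beside medians of 0.26 to 0.43 for the nuclear subunits.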

How the data were processed

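RNA-seq of 4 libraries was analysed, 1 per condition. The authors deposited raw counts of reads per gene, not normalized, and FPKM values, which correct the counts for gene length and for sequencing depth. The submitters' processing notes name CASAVA 1.8, fastp, HISAT2 2.0.5, featureCounts 1.5.0-p3 and hg38, and the options for strand, multimapping and overlapping genes are not given in the sources used here. All columns were mapped to a sample by name. Genes were matched by identifier to GENCODE release 29, which also gave the sequences.

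Each gene was expressed as a share of the reads on genes, with 95% Wilson intervals for shares and exact conditional intervals for ratios. Log2 ratios of genes used a prior count of 2, and genes that reached 10 reads in 1 or more libraries were compared. A quasi-likelihood test or DESeq2 would have no residual degrees of freedom, so no test was run and genes past 2-fold were counted. The ratio code was tested on simulated data. All MT protein and rRNA genes were named, tRNA genes with at least 10 reads, defining nuclear genes, and nuclear genes past 2-fold with a mean of at least 50 reads, at most 4 per list. MT-TF, MT-TC, MT-TT, the histone sum and the marker genes were added for context. The members and lists were chosen with earlier results of these data known. R 4.3.3, edgeR 4.0.16 (TMM factors), DESeq2 1.42.0 (size factors), Python 3.11.15, numpy 2.4.6, pandas 2.3.3, scipy 1.17.1, biopython 1.88 and matplotlib 3.10.9 were used.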

Additional observations from a re-analysis of the deposited data

How the results depend on the processing

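The excess of MT reads over PBS kept its direction under every alternative, and its size depended on the rRNA genes. In the order PBS, normo-Migs, hypo-Migs and CD147KO-Migs, the MT share was 2.59%, 3.77%, 3.81% and 3.71% for MT protein genes among protein-coding reads, 2.54%, 3.66%, 3.69% and 3.59% without the rRNA genes, and 2.74%, 5.06%, 5.22% and 5.11% with the nuclear copies added. The log2 ratios to PBS of normo-Migs, hypo-Migs and CD147KO-Migs were 0.94, 0.97 and 0.94 with TMM factors, 0.93, 0.95 and 0.92 with DESeq2 size factors, 0.53, 0.54 and 0.50 without the rRNA genes, and 0.89, 0.93 and 0.90 with the copies. Hypo-Migs minus normo-Migs, hypo-Migs minus CD147KO-Migs and normo-Migs minus CD147KO-Migs were 0.0303, 0.0333 and 0.00304 with TMM factors, 0.0294, 0.0320 and 0.00253 with size factors, and 0.00962, 0.0381 and 0.0285 without the rRNA genes, so the last pair changed sign.

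At 1.5-fold, 6, 7 and 6 MT genes were past the limit against PBS. Without a filter on reads, 1 gene, MT-TF, was past 2-fold in both pairs with CD147KO-Migs. All other MT counts were as reported, also with a prior count of 0.25 and on log2(FPKM + 1). Over all genes, the filter of 10 reads in every library left 2702, 2756 and 2742 genes past 2-fold against PBS (6022, 6078 and 6030 in the main count). Between Mig libraries it left 251, 231 and 262 (1870, 1795 and 1936). With this filter 14970 genes were compared in place of 19895. The share past 2-fold was lower as well, at 18.0% to 18.4% against PBS and 1.54% to 1.75% between Mig libraries. Of single MT genes, MT-ND1 alone lost its call, at 0.99 for hypo-Migs and 1.00 for CD147KO-Migs as a share of MT protein reads. On that scale 30 ratios of single MT genes changed sign and 60 kept it, and against PBS MT-CO2, MT-CO3, MT-ATP6, MT-ATP8, MT-ND4, MT-ND5 and MT-ND6 turned from above 0 to below it with each kind of Migs, from -0.03 for MT-CO3 to -0.46 for MT-ND4. Under TMM factors 6 ratios changed sign and by FPKM 4, all within 0.05 of 0.

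No paired analysis was possible because each condition had 1 library, and leaving out replicates was not possible either. Counting error is small at these depths for all tested MT genes but MT-ATP8 and MT-TP, and the spread between cultures, extractions and library preparations is unknown. Any effect of Migs on MT reads and any difference between the library labelled PBS and the others from before the treatment cannot be told apart.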
